A study of Mus musculus with 8 samples.

Results

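Genes of the Polycomb complexes were followed through every library of a mouse embryonic stem cell RNA sequencing study. They are Ezh1, Ezh2, Eed, Suz12, Jarid2, Mtf2, Phf19, Rnf2, Ring1 and Cbx7, 10 of the 23560 genes and unmatched transcript records in the deposited isoform tables. They were chosen by symbol, as subunits of the complexes, and the FPKM (fragment counts set against transcript length and library size) of all records of a symbol were summed. All 10 averaged at least 1 FPKM over the 8 libraries, as did 11832 genes in all.

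Polycomb proteins keep developmental genes silent. Polycomb repressive complex 2 (PRC2) places methyl groups on lysine 27 of histone H3 through the methyltransferase EZH2 or its relative EZH1, held in an active core by EED, which binds the methylated histone tail, and by the zinc finger protein SUZ12. JARID2, MTF2 and PHF19 are accessory subunits that bring PRC2 to its sites, MTF2 and PHF19 being Polycomb-like proteins with a Tudor domain. Polycomb repressive complex 1 (PRC1) ubiquitinates histone H2A through the RING finger ligases RNF2 (RING1B) and RING1 (RING1A), and CBX7 is the chromodomain subunit by which canonical PRC1 reads the PRC2 mark in embryonic stem cells.

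The cells were embryonic stem cells of a mixed C57BL/6 and 129Sv background, either p53+/+ or p53-/-, grown at low passage with serum and leukemia inhibitory factor. Each genotype was left untreated or given 0.5 uM Adriamycin (doxorubicin, a topoisomerase II poison that breaks DNA and activates p53) for 8 hours. From each of the 4 combinations there was 1 input library of RNA with a poly-A tail and 1 library of RNA recovered with hnRNP L, an RNA-binding splicing regulator, by immunoprecipitation (RIP). That gives 8 groups of 1 library, and nothing in the labels says whether libraries came from separate cultures or how many clones stand behind p53-/-. A single pair of libraries has no replicate check, so such a difference is a comparison of those libraries. Where p-values are given they measure the spread between these libraries, which is not a spread of replicates. In the tests between genotypes, the untreated and treated libraries stand in for replicates, so that spread includes differences in the response to treatment.

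All 10 embryonic stem cell markers examined were present in every library, between 26.3 and 6242 FPKM in the inputs. The p53-/- cells carried more RNA of 23 fibroblast markers, with a summed 1121 and 1299 FPKM in their inputs against 380 and 310 FPKM in the p53+/+ inputs, where 4 of the 23 were at 0. The part of these markers in any genotype difference below was not tested, and in bulk RNA fewer cells of a type and less RNA per cell cannot be told apart. Trp53 itself had 178.4 and 119.7 scaled FPKM (defined below) in the p53+/+ inputs and 105.2 and 86.1 in the p53-/- inputs, and since the labels do not say which part of the gene is deleted, its summed RNA checks nothing. The p53 target Mdm2 was 2.92 higher on the log2 scale after Adriamycin in p53+/+ input and 0.08 higher in p53-/- input. Transcripts took up 5.67 to 7.48 Gb of coverage in the inputs and 3.21 to 4.94 Gb in the RIP libraries.

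The promoters of the 4 PRC2 genes with the most negative Adriamycin differences in p53+/+ input are shown first, because the treatment results turn on these genes. They are from RefSeq, build GRCm38.p6, read 5′ to 3′ on the gene's strand from 250 bases before to 50 bases after the annotated start. The window of Ezh2 is chr6:47594981-47595280 on the minus strand. That of Jarid2 is the upstream one of its annotated starts, chr13:44730524-44730823 on the plus strand. For Mtf2 the upstream start is likewise shown, chr5:108065424-108065723 on the plus strand. Suz12 lies at chr11:79992856-79993155 on the plus strand. Capitals mark 2 motifs searched on both strands, the E2F letters (TTT, then 2 bases that are each C or G, then CGC) and the CHR letters TTTGAA.
Ezh2: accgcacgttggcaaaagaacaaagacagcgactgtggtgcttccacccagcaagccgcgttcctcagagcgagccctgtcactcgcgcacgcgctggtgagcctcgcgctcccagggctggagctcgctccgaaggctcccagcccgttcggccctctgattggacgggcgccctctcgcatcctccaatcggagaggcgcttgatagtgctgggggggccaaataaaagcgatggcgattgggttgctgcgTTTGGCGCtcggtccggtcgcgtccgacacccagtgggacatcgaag
Jarid2: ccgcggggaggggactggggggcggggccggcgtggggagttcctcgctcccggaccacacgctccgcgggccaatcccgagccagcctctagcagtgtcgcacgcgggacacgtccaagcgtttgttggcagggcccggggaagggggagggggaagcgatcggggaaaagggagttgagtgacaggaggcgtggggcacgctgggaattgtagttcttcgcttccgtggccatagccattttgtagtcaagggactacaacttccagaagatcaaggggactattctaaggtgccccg
Mtf2: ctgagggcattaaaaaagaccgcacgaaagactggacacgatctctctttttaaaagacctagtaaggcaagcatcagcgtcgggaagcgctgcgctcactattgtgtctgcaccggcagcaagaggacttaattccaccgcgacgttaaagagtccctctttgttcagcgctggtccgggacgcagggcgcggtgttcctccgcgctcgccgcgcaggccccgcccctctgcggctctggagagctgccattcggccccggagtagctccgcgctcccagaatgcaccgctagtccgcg
Suz12: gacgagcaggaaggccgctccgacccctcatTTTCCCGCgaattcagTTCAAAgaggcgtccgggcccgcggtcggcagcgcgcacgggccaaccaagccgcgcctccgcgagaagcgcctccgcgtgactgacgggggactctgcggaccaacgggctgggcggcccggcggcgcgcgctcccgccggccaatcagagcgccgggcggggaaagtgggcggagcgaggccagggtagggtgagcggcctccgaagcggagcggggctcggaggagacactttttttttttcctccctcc

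The 10 genes had 12 such windows. E2F letters were present in windows of 3 of the 10 genes, Ezh2, Suz12 and Phf19, and in 2.26% of all 32851 mouse promoter windows. CHR letters were present in windows of 4 genes, Cbx7, Eed, Suz12 and the downstream start of Mtf2, and in 17.9% of all windows. The p53 consensus was found in no window of these genes and in 0.0731% of all windows. The windows of the 10 genes held 2 to 41 CpG dinucleotides with a median of 30, where the median of all windows was 7. These matches describe letters and do not mark sites. Members were counted per gene and all promoters per window, and the windows were not matched for CpG content, so the shares are not directly comparable.

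To compare libraries, FPKM were divided by a factor for each library, the median ratio to the geometric mean library, and are called scaled FPKM. Differences are on the scale log2(scaled FPKM + 1), which understates the change of genes with low values. By these levels, which are per length, ordered by the mean of the 4 inputs, Eed had 39.0 to 85.7 scaled FPKM, followed by Jarid2 with 23.3 to 54.8, Suz12 with 14.2 to 45.3, Ezh2 with 18.6 to 45.8, Mtf2 with 21.7 to 44.5, Rnf2 with 21.3 to 31.6 and Cbx7 with 18.2 to 32.5. Neighbours among these 7 overlapped over the 4 inputs, and Eed stood above Jarid2 clearly only in p53+/+ cells, since the untreated p53-/- input had 48.9 of Eed and 52.5 of Jarid2 and the treated one 39.0 and 38.9. A gap followed, and Ezh1 stood at 3.17 to 5.10, Ring1 at 1.38 to 4.58 and Phf19 at 0.469 to 1.24 scaled FPKM, with overlap between Ezh1 and Ring1 but not between Ring1 and Phf19. Ezh1, Ring1 and Phf19 are thus the less abundant paralogs of Ezh2, Rnf2 and Mtf2.

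**Figure D1:**
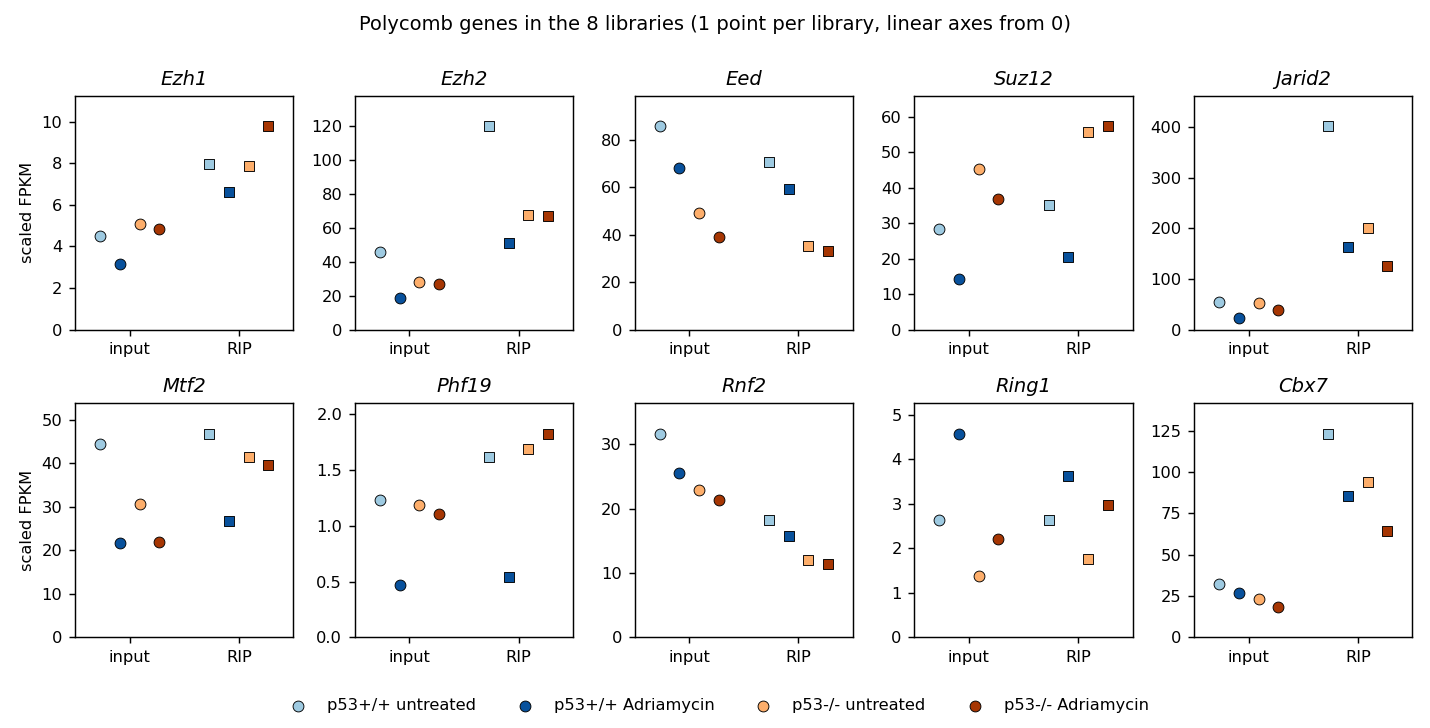
Scaled FPKM (y axis, linear from 0, a range of its own for each gene) of the 10 Polycomb genes in the 4 input libraries (circles) and the 4 hnRNP L RIP libraries (squares), 1 point per library, coloured by genotype and treatment. Ezh2, Jarid2, Eed, Mtf2, Rnf2 and Cbx7 are highest in the untreated p53+/+ library of both kinds. Both p53-/- points of Suz12 lie above both p53+/+ points, in input and in RIP, and those of Eed and Rnf2 lie below. The share of all genes with such a separation was not counted.

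After Adriamycin, 3 PRC2 genes were lower in p53+/+ input by 1 or more on the log2 scale, the size used here to call a difference between 2 libraries. They were Ezh2, Jarid2 and Mtf2, and no member rose by that much. Among all genes tested, 3.96% fell and 8.43% rose by 1 or more in this comparison. All 7 PRC2 genes were below 0, with a median of -0.95, as were 54.2% of all genes, whose median was -0.05. In p53-/- input the 10 members lay between -0.47 and 0.43, none was called, and 0.144% of all genes rose and 0.186% fell. All 7 PRC2 genes were below 0 there too, with a smaller median of -0.29. Of all genes 50.2% were below 0 in that comparison, and their median was -0.001.

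Ezh2, the main methyltransferase of dividing cells, stood at 45.8 scaled FPKM in untreated p53+/+ input and at 18.6 after Adriamycin, and at 28.2 and 26.9 in the p53-/- inputs. Its RIP values were 120.2 and 51.3 in p53+/+ and 67.9 and 66.8 in p53-/-. So the untreated p53+/+ library was the highest and the treated p53+/+ library the lowest of each kind, with both p53-/- libraries between them. The differences with Adriamycin were -1.25 in input and -1.21 in RIP of p53+/+ cells, and -0.06 and -0.02 in p53-/- cells. On the scale used, Ezh2 was the only member whose p53+/+ and p53-/- responses differed by 1 or more, by -1.19 in input and in RIP. This was not tested because each corner is 1 library. With a pseudocount of 0.5 FPKM in place of 1, Phf19, whose low values are described below, also passed that size in RIP, at -1.11. Among all genes 2.82% had a difference of responses of -1 or lower in input and 4.19% in RIP, and 8.04% and 9.38% had one of 1 or higher. The leading record of Ezh2, NM_007971, had 82.3% to 90.0% of the gene's FPKM in the 8 libraries. The bounds that Cufflinks gives for that record, whose confidence level no source states, were 37.0 to 41.1 and 14.8 to 16.8 scaled FPKM in p53+/+ input, and they overlapped in p53-/- input.

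Ezh1, the methyltransferase associated with resting cells, had 4.52 and 3.17 scaled FPKM in p53+/+ input and 5.10 and 4.84 in p53-/- input, untreated and then treated. The ratio of Ezh2 to Ezh1 FPKM was 10.1 in untreated p53+/+ input and 5.87 after Adriamycin. It was 5.53 and 5.56 in the p53-/- inputs, so the untreated p53+/+ library stood apart from the other inputs. In RIP the same ratio was 15.1 and 7.72 in p53+/+ and 8.64 and 6.83 in p53-/-.

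Jarid2, the accessory subunit that also binds nucleosomes and RNA, had 54.8 and 23.3 scaled FPKM in p53+/+ input before and after Adriamycin, and 52.5 and 38.9 in p53-/- input. It had 402.0 and 163.4 in p53+/+ RIP and 200.6 and 125.4 in p53-/- RIP. The treated library was the lower in all 4 pairs. The differences were -1.20 and -1.29 in p53+/+ input and RIP, both called, and -0.42 and -0.67 in p53-/- input and RIP, neither called. In p53+/+ RIP, 2 members fell, Jarid2 and Ezh2, where 5.38% of all genes fell and 9.43% rose. Quantile normalization ended both RIP calls, with -0.96 for Jarid2 and -0.998 for Ezh2. In p53-/- RIP no member was called, and 0.203% of all genes rose and 0.27% fell.

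Mtf2, the Polycomb-like subunit that binds unmethylated CpG-rich DNA, had 44.5 and 21.7 scaled FPKM in p53+/+ input and 30.7 and 21.9 in p53-/- input, untreated and then treated. The p53+/+ difference of -1.01 was just past the size called, and it was short of it with FPKM as deposited (-0.89) and with quantile normalization (-0.87). In RIP the gene had 46.8 and 26.7 in p53+/+ and 41.4 and 39.7 in p53-/-, differences of -0.79 and -0.06. With its leading record alone these RIP differences were -1.08, past the size called, and -0.39. A noncoding record without a symbol, NR_045608, spans the whole locus of Mtf2 (mm9, chr5:108494693-108538238) at 0.704 to 2.70 FPKM, so the split of fragments between it and Mtf2 is uncertain.

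Suz12 and the remaining core subunit Eed moved differently. Suz12 had 28.5 and 14.2 scaled FPKM in p53+/+ input and 45.3 and 36.8 in p53-/- input, and its p53+/+ difference of -0.95 was just short of the size called. It consists of 2 records of nearly equal length, and they shared the difference unequally. NM_199196 had 18.7 FPKM as deposited in untreated and 5.48 in treated p53+/+ input, while NM_001163018 had 19.0 and 15.1. With the latter record alone the p53+/+ input difference was -0.42. In p53+/+ RIP, where the gene's difference was -0.76, it was NM_001163018 that went from 18.7 to 8.75 FPKM, while NM_199196 had 2.05 and 2.13. The assignment of fragments between records is an estimate by Cufflinks. Eed had 85.7 and 68.1 scaled FPKM in p53+/+ input and 48.9 and 39.0 in p53-/- input, with nearly equal Adriamycin differences of -0.33 and -0.32.

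**Figure D2:**
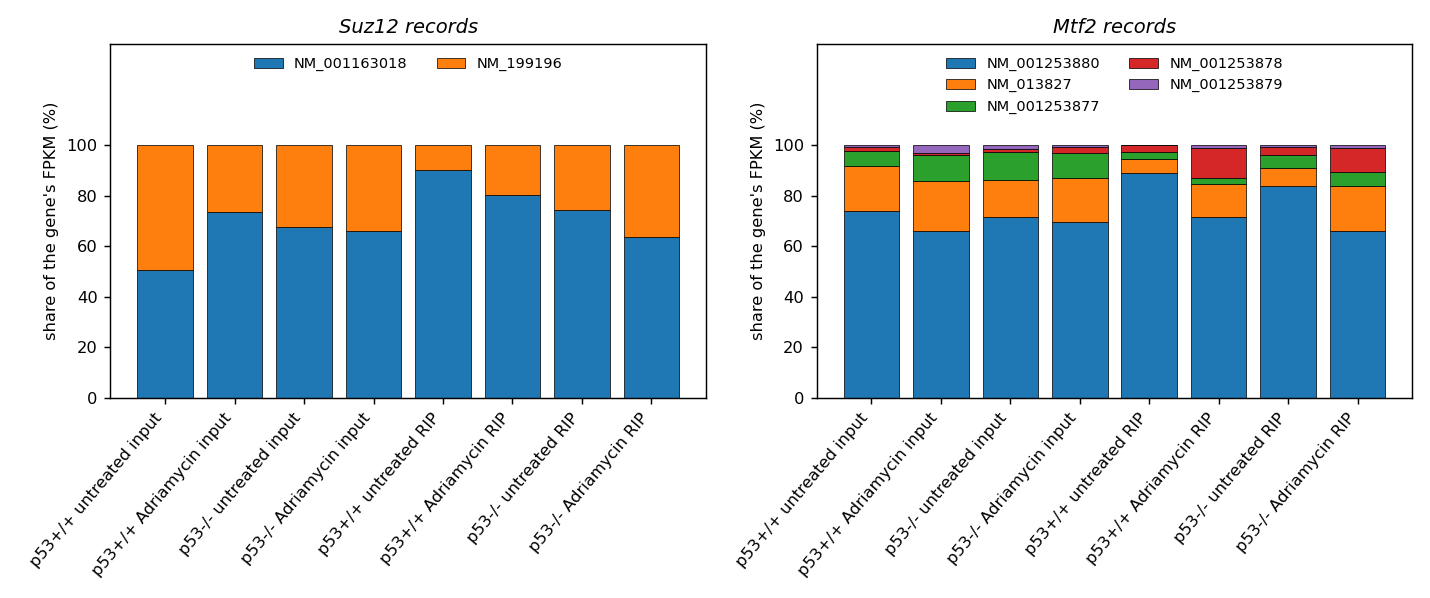
Share of the gene's summed FPKM (%) held by each transcript record of Suz12 (2 records) and Mtf2 (5 records) in the 8 libraries, stacked to 100%. NM_199196 holds 49.6% of Suz12 in untreated p53+/+ input and 26.6% after Adriamycin, and 9.88% to 36.5% in RIP, while NM_001253880 holds 66.0% to 88.9% of Mtf2.

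Phf19, a Polycomb-like subunit that recognises methylated lysine 36 of histone H3, was near the floor of the tested range. It had 1.24 and 0.469 scaled FPKM in p53+/+ input and 1.18 and 1.10 in p53-/- input. The treated p53+/+ library was the lowest of the inputs, and the same held in RIP, with 0.538 against 1.61 to 1.83 scaled FPKM in the others. On the log2 scale these p53+/+ differences were -0.61 in input and -0.77 in RIP, which the added 1 FPKM makes small.

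The 3 PRC1 genes had no called Adriamycin difference in any of the 4 pairs. Rnf2, the main H2A ligase of embryonic stem cells, had 31.6 and 25.5 scaled FPKM in p53+/+ input and 22.9 and 21.3 in p53-/- input, differences of -0.30 and -0.10. Its paralog Ring1 was the one member with values above 0 in all 4 pairs, from 0.35 in p53+/+ RIP to 0.62 in p53+/+ input, where it had 2.64 and 4.58 scaled FPKM. These are low values, and in p53+/+ RIP its Cufflinks bounds overlapped, at 2.11 to 3.18 untreated and 3.04 to 4.23 treated. They lay apart in p53+/+ input and in both p53-/- pairs. In p53-/- input Ring1 had 1.38 and 2.20 scaled FPKM. The ratio of Rnf2 to Ring1 FPKM was therefore 12.0 untreated and 5.57 treated in p53+/+ input, and 16.6 and 9.67 in p53-/- input. Cbx7 had 32.5 and 27.1 scaled FPKM in p53+/+ input and 23.0 and 18.2 in p53-/- input, lower in the treated library of each genotype by 0.25 and 0.32 on the log2 scale.

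**Figure D3:**
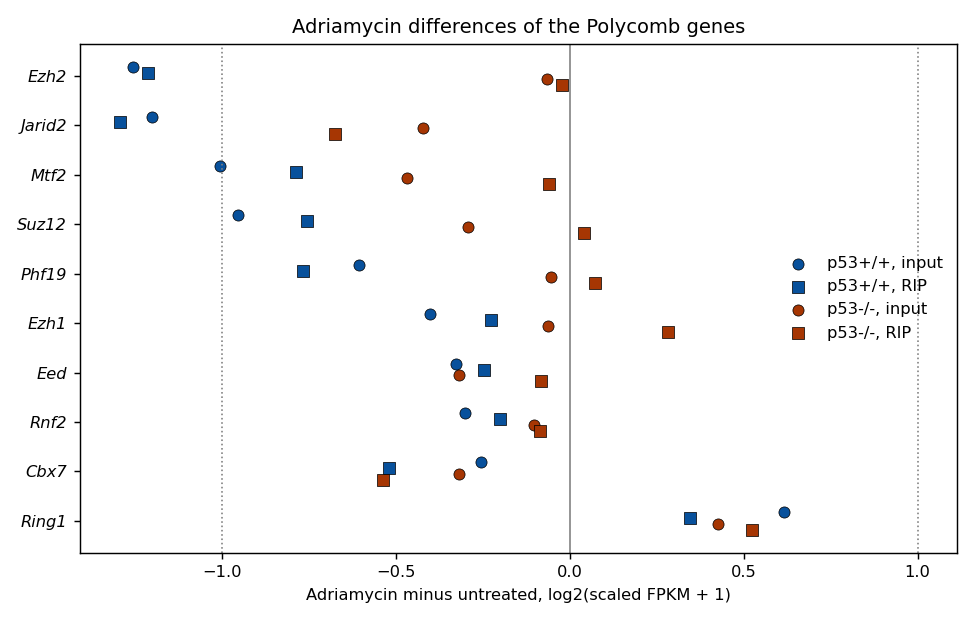
Adriamycin minus untreated on the log2(scaled FPKM + 1) scale (x axis) for each of the 10 genes (y axis, sorted by p53+/+ input), for p53+/+ (blue) and p53-/- (brown) in input (circles) and RIP (squares). Each point is 1 library minus 1 library, and the dotted lines mark -1 and 1. On this scale, which understates changes at low values such as those of Phf19, Ezh2 shows the widest gap between the genotypes, -1.25 against -0.06 in input.

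Markers of the embryonic stem cell state moved in the same libraries. Of the 10 markers, 5 fell by 1 or more with Adriamycin in p53+/+ input, Nanog, Zfp42, Utf1, Tdgf1 and Esrrb, with a median of all 10 of -0.97 and a range of -1.69 to -0.09, where 3.96% of all genes fell. In p53-/- input 1 of the 10 fell, Zfp42 at -1.04, where 0.186% of all genes fell, and the median was -0.46. Of 20 E2F and DNA replication genes, a group that like Ezh2 is induced in cycling cells, 1 fell in p53+/+ input, Ccne1 (cyclin E1) at -1.50, and their median was -0.29. The part of either group in the Polycomb differences was not tested.

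Between the genotypes, 0 of the 10 members and 0% of all 11832 genes passed limma's test on the 4 inputs with treatment as a covariate, at an adjusted p of 0.05. The fit has 1 residual degree of freedom, which also holds any difference in response between the genotypes. Of all genes, 2404, 3 of them members, had an unadjusted p under 0.05 by limma. Those members were Suz12, Eed and Ring1. Suz12 was 0.98 higher in p53-/- input (SE 0.26, 95% interval 0.25 to 1.71, limma adjusted p = 0.204), higher in 2 of 2 treatments. Eed was lower there by 0.79 on the log2 scale (interval -1.32 to -0.26, limma adjusted p = 0.195). Ring1 stood at -0.71 (interval -1.24 to -0.17, limma adjusted p = 0.204). Alternatives of the fit called 0 to 76 genes of all and none of the 10.

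Set library against library, Suz12 was the member called higher in p53-/- cells after Adriamycin, by 1.31 in input and 1.44 in RIP, where 7.77% and 8.85% of all genes were called higher and 10.8% and 14.3% lower. In untreated cells no member was called, and Suz12 stood at 0.65 in input and 0.65 in RIP. With its leading record alone it was 1.05 in untreated input, past the size called, and 0.38 in untreated RIP, and with FPKM as deposited the RIP value was 1.24. In untreated input 3.22% of all genes were called higher and 2.44% lower, and in untreated RIP 3.99% and 5.38%. Jarid2 lay just short of the size called in untreated RIP, at -0.999, and is not counted. The 3 PRC1 genes were below 0 in all 4 comparisons, from -0.80 to -0.22, and so was the PRC2 gene Eed, from -0.98 to -0.79. Of all genes, 47.0% to 53.4% were below 0 in these comparisons. But with FPKM as deposited, which moves the median gene by 0.47 and 0.64 in RIP, the RIP values of the PRC1 genes were 0.02 to 0.41. The ratio of Eed to Suz12 FPKM was 3.01 and 4.79 in the p53+/+ inputs and 1.08 and 1.06 in the p53-/- inputs, and 2.00 and 2.90 against 0.633 and 0.579 in RIP. It restates the opposite genotype differences of Eed and Suz12, neither of which passed the test. How many gene pairs separate the libraries likewise was not counted.

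Transcripts of 6 of the 10 genes were higher in the hnRNP L RIP than in input, and those of 2 were lower. The 6 were Jarid2, Cbx7, Ezh2, Ezh1, Suz12 and Mtf2, and the 2 were Rnf2 and Eed, by limma on all 8 libraries with the combination of genotype and treatment as a block. Of all genes tested, 37.3% were higher and 37.8% lower by the same rule. No mock or control-antibody precipitation is among the 8 libraries, so how specific these differences are to hnRNP L was not tested. The median of the 10 members was 0.42 and that of all genes was -0.00. The paralog pairs were Ezh2 at 1.33 and Ezh1 at 0.75, Ring1 at 0.07 and Rnf2 at -0.79, and Mtf2 at 0.40 and Phf19 at 0.25, and the differences within pairs were not tested.

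Jarid2 led the members at 2.30 (SE 0.22, 95% interval 1.78 to 2.82, limma adjusted p = 0.000101), 4.91-fold on this scale. Its RIP minus input values were 2.85 and 2.76 in p53+/+ cells, untreated and treated, and 1.91 and 1.66 in p53-/- cells. Cbx7 followed at 1.82 (SE 0.09, limma adjusted p = 1.56e-05), with 1.63 to 1.99 over the 4 combinations. Ezh2 was at 1.33 (SE 0.08, limma adjusted p = 2.20e-05), with the narrow range of 1.24 to 1.41. Ezh1 was at 0.75 (SE 0.09, limma adjusted p = 0.000376), and all 4 combinations of these genes were above 0.

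Suz12 at 0.43 (SE 0.09, limma adjusted p = 0.00508) and Mtf2 at 0.40 (SE 0.13, limma adjusted p = 0.0278) were nearer to 0. Eed stood at -0.29 (SE 0.09, limma adjusted p = 0.0188) and Rnf2 at -0.79 (SE 0.08, limma adjusted p = 0.000146), each below 0 in 4 of 4 combinations. Phf19 at 0.25 (interval 0.01 to 0.50, limma adjusted p = 0.0561) and Ring1 at 0.07 (interval -0.22 to 0.35, limma adjusted p = 0.630) did not pass. Phf19 passed without the trend (limma adjusted p = 0.0420), without the treated p53+/+ combination (limma adjusted p = 0.0304) and in the p53-/- libraries alone (limma adjusted p = 0.00305), and Ring1 passed as lower, at -0.61, with FPKM as deposited (limma adjusted p = 0.00938). The RIP libraries had a smaller share of fragments on transcripts, as estimated from FPKM times length. Without scaling the median of all genes was -0.72, a shift of -0.71 from the scaled value. On that scale 5 members, Ezh1, Suz12, Mtf2, Phf19 and Ring1, turned below 0, while each stood 0.11 to 0.68 above the median gene. Over 16 alternatives the calls of Jarid2, Cbx7 and Rnf2 held, and the highest adjusted p was 0.123 for Ezh2, 0.876 for Ezh1, 0.445 for Suz12, 0.259 for Mtf2 and 0.499 for Eed.

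**Figure D4:**
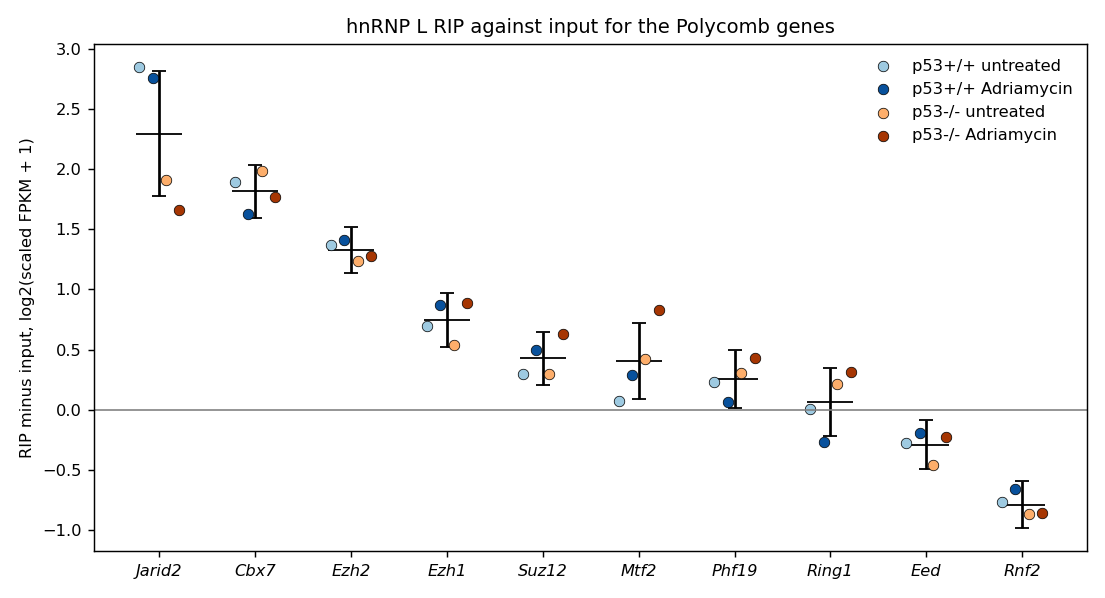
RIP minus input on the log2(scaled FPKM + 1) scale (y axis) for the 10 genes. Points are the 4 combinations of genotype and treatment, and bars are limma's mean with its 95% interval. Jarid2 is the highest, at 2.30, with its p53+/+ points of 2.85 and 2.76 above its p53-/- points of 1.91 and 1.66, and Rnf2 is the lowest, at -0.79.

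Of the 10 members, Jarid2 alone passed the test of the RIP to input ratio between the genotypes, being lower in p53-/- cells by 1.02 on the log2 scale (SE 0.17, 95% interval -1.43 to -0.61, limma adjusted p = 0.0312), in 2 of 2 pairs. By the same test, 0.837% of all genes had a higher and 2.41% a lower ratio in p53-/- cells. The 2 pairs of a genotype are the untreated and the treated one, so their spread includes changes with treatment. This call rested on 2 pairs a side, and over 13 alternatives its adjusted p ran from 0.0185 to 0.383, with 7 of the 13 above 0.05. It was lost on leaving out the untreated p53-/- pair (adjusted p = 0.0910) or the treated p53-/- pair (adjusted p = 0.206). It was also lost with FPKM as deposited (-0.29), quantile normalization (adjusted p = 0.0921), no filter (adjusted p = 0.161), a pseudocount of 5 FPKM (adjusted p = 0.0628) and the highest record of each gene (adjusted p = 0.0630). The other 9 members lay between -0.15 and 0.45, with limma adjusted p-values from 0.255 to 0.872, and for Ezh2 the interval was -0.49 to 0.22.

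The complexes have further subunits and opposing enzymes, of which 34 were listed and 29 averaged at least 1 FPKM. With Adriamycin in p53+/+ input, 2 of the 29 rose, Phc2 (a Polyhomeotic subunit of canonical PRC1) by 1.23 and Pcgf3 (a RING partner in variant PRC1) by 1.09. Another 3 fell, Epop (a PRC2 subunit that links it to Elongin) at -1.42, Pcgf2 (MEL18, of canonical PRC1) at -1.07 and Pcgf5 at -1.01. Of all genes, 8.43% rose and 3.96% fell in this comparison. The median of the 29 was -0.38, with 22 below 0, as were 54.2% of all genes. In p53-/- input none was called, but 23 of the 29 lay below 0, with a median of -0.09. Of all genes, 50.2% were below 0 in that comparison. Epop had 94.2 and 34.7 scaled FPKM in p53+/+ input and 80.6 and 59.4 in p53-/- input. Phc2 had 8.45 and 21.1 in p53+/+ and 7.15 and 7.78 in p53-/-, the treated p53+/+ library being the highest.

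In the RIP, 15 of the 29 were higher than in input and 7 lower, where 37.3% and 37.8% of all genes were. Kdm6b and Kdm6a, the demethylases that remove the PRC2 mark, were at 3.09 (limma adjusted p = 1.99e-05) and 1.96 (limma adjusted p = 1.95e-05). Phc1 was at 2.86 (limma adjusted p = 1.16e-05) and Asxl1, of the Polycomb deubiquitinase, at 2.22 (limma adjusted p = 5.95e-05). At the other end stood Rbbp4 at -1.30 (limma adjusted p = 2.57e-05) and Rbbp7 at -1.04 (limma adjusted p = 6.84e-05), the histone-binding subunits PRC2 shares with other complexes. None of the 29 passed the ratio test between genotypes by limma at an adjusted p of 0.05.

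**Figure D5:**
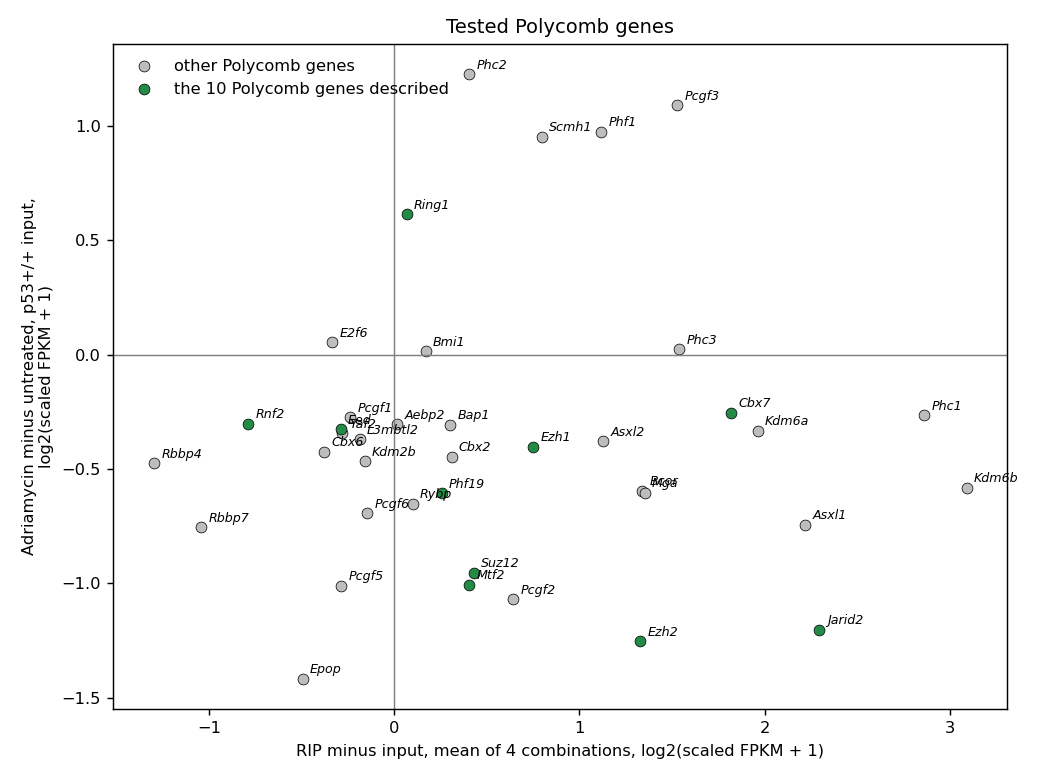
RIP minus input (x axis, mean of the 4 combinations) against the Adriamycin difference in p53+/+ input (y axis, 1 library minus 1 library), both on the log2(scaled FPKM + 1) scale, for the 10 genes described (green) and the 29 other Polycomb genes (grey). Kdm6b at 3.09 and Phc1 at 2.86 lie farthest right, Epop at -1.42 lowest and Phc2 at 1.23 highest.

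Genes that Polycomb silences in embryonic stem cells were mostly below the tested range, with 8 of 32 listed reaching a mean of 1 FPKM. Cdkn2b, which encodes the cell cycle inhibitor p15, had 1.12 and 10.1 scaled FPKM in p53+/+ input before and after Adriamycin, a difference of 2.39, and 6.06 and 6.91 in p53-/- input. Of the 8 it was the one called with Adriamycin in p53+/+ input, where 8.43% of all genes rose and 3.96% fell. The median of the 8 was -0.30 there, and 6 lay below 0, as did 54.2% of all genes. None was called in p53-/- input, where the median of the 8 was 0.04 and 6 lay above 0, as did 49.6% of all genes. Cdkn2a, the neighbouring gene for p16 and p19ARF, had 10.6 and 9.04 in p53+/+ input and 44.95 and 46.2 in p53-/- input. Gata6, an endoderm transcription factor, had 2.94 and 2.41 in p53+/+ and 0.244 and 0.274 in p53-/- input. Between the genotypes, Cdkn2a and Cdkn2b were called higher in p53-/- untreated input, and Cdkn2a and Pax6 in treated input. Gata4 and Gata6 were called lower in both, Gata4 the most, at -2.04 untreated and -1.72 treated. Of all genes, 3.22% were called higher and 2.44% lower untreated, and 7.77% and 10.8% treated. The fibroblast markers separate the same libraries as Cdkn2a and Gata6, and their part was not tested.

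Over the 8 libraries, each member's centred profile was compared with those of 7348 genes averaging at least 5 FPKM by root mean square difference on the log2 scale. The nearest gene to Ezh2 was Ino80 at 0.09, to Eed Manba at 0.05, to Rnf2 Uba2 at 0.07, to Jarid2 Cdc42ep4 at 0.18 and to Suz12 Dnajc7 at 0.10. For Cbx7 it was Kdm6a at 0.15. Among the members the closest pair was Phf19 and Mtf2 at 0.26, followed by Eed and Rnf2 at 0.33 and Ezh1 and Mtf2 at 0.36. Of all members, Cbx7 ranked best among the neighbours of another, at 135 for Jarid2.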

How the data were processed

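The 8 libraries were sequenced from TruSeq preparations, and the authors deposited 1 isoform table each, holding FPKM per transcript record with Cufflinks bounds, per the file headers. The coverage column of these tables, deposited by the authors, was used to describe depth. CASAVA 1.8.2, TopHat, TopHat2 2.0.8, Cufflinks and mm9 are named in the submitters' processing notes, with settings not given in the sources used here.

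Of 30769 records, 98.2% matched a symbol in RefSeq's table by accession. FPKM were summed per gene, divided by a median-ratio factor per library (0.532 to 1.45, from genes averaging at least 1 FPKM), and taken as log2(scaled FPKM + 1). Those genes were tested with limma 3.58.1 in R 4.3.3 (moderated with a trend, Benjamini-Hochberg over all 11832, threshold 0.05), 2-sided: RIP against input with the combination as a block, the RIP to input ratio between genotypes, and genotype in input with treatment as a covariate. Without a replicate, no test was made and a difference of 1 or more was called. Depth limits precision only through the number of fragments, which FPKM do not give. The script was tested on simulated data. All 10 members are described. Of the other lists, genes are named that passed the threshold or the size, at most 4 a direction by size, beside each member's nearest neighbour. The members and lists were chosen with earlier results of these data known. Alternatives were other pseudocounts, filters, scalings, record choices, fits, and leaving out each combination.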

Additional observations from a re-analysis of the deposited data

Results flagged for a closer look

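The Jarid2 ratio of RIP to input differed between the genotypes by a test of the difference itself, and is the one member result for which that held. The p53-/- minus p53+/+ value was -1.02 on the log2 scale, from 2 pairs a side (limma adjusted p = 0.0312, with 0.0185 to 0.383 over 13 alternatives). The value was below 0 in all 13, from -1.14 to -0.29. In untreated cells the input levels were close, at 54.8 scaled FPKM in p53+/+ and 52.5 in p53-/-, and the RIP levels were 402.0 and 200.6. In treated cells the inputs were 23.3 and 38.9 and the RIP levels 163.4 and 125.4. The share of fragments on transcripts, estimated from FPKM times length, also differed between these RIP libraries. It was 48.9% and 41.1% in p53+/+ and 65.2% and 64.2% in p53-/-, and its part in the result was not tested.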

How the results depend on the processing

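Calls of Jarid2, Cbx7 and Rnf2 in RIP against input held under all 16 alternatives, with adjusted p up to 0.0109 by limma. The other member calls in that test and in the ratio test were each lost under 1 or more alternatives, of scaling or of other kinds. FPKM as deposited moved the median of all genes by -0.71 in RIP against input and 0.58 in the ratio test. As deposited, Ezh1 (-0.036), Suz12 (-0.47), Mtf2 (-0.50), Phf19 (-0.19) and Ring1 (-0.61) turned below 0 in RIP against input, leaving 2 members higher. In the genotype ratio Eed (0.62), Ezh1 (0.52), Ezh2 (0.59) and Rnf2 (0.54) turned above 0, with 4 members higher, 0 lower and 4801 genes called. The p53-/- against p53+/+ RIP comparisons then had 1 member higher untreated and 5 treated. Quantile normalization turned Ring1 to -0.18 in RIP against input, and Eed to 0.093 and Ezh1 to 0.025 in the ratio. It left 1 member lower in RIP against input, 0 lower and 90 genes called in the ratio, 35 genes called for genotype in input, 0 members lower with Adriamycin in p53+/+ RIP (2 as reported), 2 lower in the dependence of the response in RIP, and, in treated cells of p53-/- against p53+/+, 1 lower in input and 2 higher in RIP.

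The ratio test called 384 genes as reported, 226 and 0 members lower with a pseudocount of 5 FPKM, 0 genes and 0 members with no filter, and 119 genes and 0 members with the highest record of each gene, where Suz12 turned to -0.36. That record choice also gave 1 member higher in untreated input of p53-/- against p53+/+ and 1 lower in untreated RIP. A pseudocount of 0.5 FPKM gave 2 members lower in the dependence in RIP, 2 higher in treated RIP and 1 lower in untreated RIP of p53-/- against p53+/+. A filter of 5 FPKM called 26 genes for genotype in input.

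Without the replicate block, 5362 genes were called in RIP against input with 1 member lower and 4 higher (8882, 2 and 6 with it), and 76 in the genotype test. Leaving out each combination gave 1 to 2 members lower in RIP against input, and 0 to 1 members lower and 4 to 1222 genes called in the ratio. The 4 and 17 genes came from leaving out a p53-/- pair (treated and untreated), and 897 and 1222 from leaving out a p53+/+ pair. In those fits Ring1 ran from -0.016 to 0.18 in RIP against input, and in the ratio Cbx7 ran from -0.015 to 0.25, Eed from -0.22 to 0.013, Ezh1 from -0.25 to 0.10 and Suz12 from -0.10 to 0.23. A lone pair is assumed to vary like the other genotype's. Chosen after seeing the data, scaling over all genes with a value in every library called 36 genes for genotype in input, gave 2 members lower in untreated RIP of p53-/- against p53+/+ and turned Ring1 to -0.036. The p53+/+ libraries alone, likewise chosen afterwards, gave 1 member lower in RIP against input and Ring1 at -0.13, and the p53-/- libraries alone 7 higher and 2 lower. The causes of these shifts were not tested. No pair of libraries with 1 on each side has a replicate, so the Adriamycin differences rest on single libraries, and members near 1 FPKM, such as Phf19, have the least precise values.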
